A study of Mus musculus with 4 samples.

Results

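The genes described here are 3 Krüppel-like factors, Klf2, Klf4 and Klf6, and 5 genes known as targets of the transcriptional co-activator YAP, namely Ctgf, Cyr61, Thbs1, Amotl2 and Axl. They were picked by symbol as a named set, and all 8 were found among the 42977 genes of the deposited gene table. RNA was sequenced from exosomes, small vesicles collected from medium that had been conditioned by cultured mesenchymal stem cells (MSCs), for which the labels describe both ultracentrifugation and an isolation reagent. The MSCs came from the bone marrow of male SD rats aged 6 to 8 weeks and were used at passages 3 to 4. Cells behind the 2 MSC-Exo libraries received DMSO, the solvent, and those behind the 2 MSCATV-Exo libraries received atorvastatin (ATV) at 1 µmol/L in the same solvent volume. They are called control and atorvastatin libraries below. The labels disagree on how long the cells were treated, with 24 h among the characteristics and 48 h in the protocol text. The samples are registered as mouse, whereas cells, build and gene identifiers are of rat. No separate animals or cultures are named behind the 2 libraries of a group, so every SD, SE, fitted interval and p-value below measures the spread between these libraries, which may be technical.

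Krüppel-like factors are zinc finger transcription factors that bind GC-rich promoter elements. Klf2 and Klf4 are known for holding blood vessel endothelium quiescent and for being induced by statins there, and Klf6 is a factor of tissue injury. YAP and its paralog TAZ (gene Wwtr1) enter the nucleus when the actin cytoskeleton is under tension, and act on genes through TEAD factors. Statins block the mevalonate pathway of cholesterol synthesis and are known to move YAP out of the nucleus in cultured cells. The comparison bears on whether RNA of these genes differed between vesicles of treated and untreated cells. Vesicle RNA stands at a remove from the cell: fewer vesicles that carry a transcript and less of it per vesicle cannot be told apart here.

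The gene table held 5350295 to 5947020 counts per library. Olfactory receptor genes, which belong to nasal epithelium, gave a yardstick of low signal: the median of 1188 such genes was 1.71 to 2.47 RPKM per library (reads scaled by gene length and library total), and their mean level had a 95th percentile of 7.24 RPKM. Of 10 MSC markers, 6 had a mean over the 4 libraries above that percentile, led by Vim at 187 to 225 RPKM. Below that percentile lay Pdgfrb (mean 6.02 RPKM), Nt5e (4.09) and Cd44 (3.53), and Col1a2 was listed at 0 in every library. Of 9 leukocyte markers 1 lay above it, Lyz2 at 5.40 to 10.6 RPKM, and the means of the list ran down to 1.49 RPKM for Cd79a, with Ptprc at 1.15 to 3.69 RPKM. Several leukocyte markers, Cd74 (mean 7.09 RPKM), Csf1r (5.67) and Cd14 (5.54) among them, thus stood above Cd44 and Nt5e per length. Of the 8 genes, 4 (Ctgf, Thbs1, Amotl2 and Axl) had a mean over the 4 libraries above that percentile. Cyr61 and all 3 Krüppel-like factors lay below it. The highest mean of an olfactory receptor gene, 14.6 RPKM, was above all 8. Of 12 markers of other tissues, 4 also had a mean above that percentile, namely Ins2 (13.7 RPKM), Krt5 (8.81), Krt14 (8.72) and Myh6 (7.81). Ins2 thus stood above Thbs1 (11.9 RPKM), the highest of the 8, although it held 0 counts in MSC-Exo replicate 1. A mean above the percentile therefore does not by itself set a gene apart from low signal.

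Klf2, the shear stress factor of endothelium (build rn6, chromosome 16, 19223087 to 19225037, minus strand, counted length 1056 bases), had the fewest reads of the 8 genes. Control replicates 1 and 2 held 29 and 22 counts, and atorvastatin replicates 1 and 2 held 40 and 32. Per length this was 5.13 and 3.89 RPKM against 6.37 and 5.41 RPKM. Both MSCATV-Exo libraries lay above both MSC-Exo libraries, by a margin smaller than the counting error of each value, since the exact 95% Poisson interval of MSC-Exo replicate 1 ran from 3.44 to 7.37 RPKM. Normalised counts (CPM, scaled to a common library total with TMM factors) averaged 4.62 ± 0.852 (SD, n = 2) in the controls and 6.51 ± 1.14 after atorvastatin. The log2 fold change, always MSCATV-Exo over MSC-Exo, was 0.49 ± 0.89 (SE). Of the olfactory receptor genes, 15.8% had a mean level at or above that of Klf2.

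Klf6, which is induced by injury and regulates matrix and growth factor genes (chromosome 17, 67887939 to 67945052, minus strand, counted length 6018 bases), was the most even of the 8 between replicates in normalised counts. The controls held 107 and 103 counts and the atorvastatin libraries 155 and 172, or 3.32 and 3.20 RPKM against 4.33 and 5.11 RPKM. The groups did not overlap, and both MSCATV-Exo values were the higher. Normalised counts were 19.0 ± 0.327 CPM (SD, n = 2) against 29.5 ± 1.63 CPM, that is 1.55-fold as fitted (log2 0.63 ± 0.37, SE). The level per length was nevertheless the lowest of the 8 genes, at 3.99 ± 0.901 RPKM (SD, n = 4), and 30.6% of olfactory receptor genes stood at or above it.

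Klf4, a factor of pluripotency and of vascular and epithelial differentiation (chromosome 5, 72283311 to 72287669, minus strand, counted length 2368 bases), was the one Krüppel-like factor of the 3 with a lower mean in MSCATV-Exo. The controls held 147 and 76 counts and the atorvastatin libraries 92 and 26, or 11.6 and 5.99 RPKM against 6.53 and 1.96 RPKM. The groups overlapped, because MSCATV-Exo replicate 1 lay above MSC-Exo replicate 2. The lowest library, MSCATV-Exo replicate 2, stood at 0.862 times that library's olfactory receptor median. On the log2 scale the difference was -0.91 ± 0.64 (SE), and leaving out MSCATV-Exo replicate 1 or 2 gave -2.11 or -0.25. Leukocyte markers, a cell type that can express Klf2 and Klf4, summed to 45.7 to 50.8 RPKM over 9 genes in MSC-Exo and to 34.9 to 40.3 RPKM in MSCATV-Exo. None of them was at 0 in all libraries, 7 of 9 had a lower mean in MSCATV-Exo, and their part in the Klf4 values was not tested. Of 12 markers of other tissues, 10 were lower in MSCATV-Exo (median log2 fold change -0.37), with sums of 80.8 and 102.8 RPKM against 69.3 and 56.5 RPKM. Among 815 tested olfactory receptor genes, 443 were lower (median -0.15). Over all tested genes 49.4% were higher in MSCATV-Exo, and the median was -0.01. Markers of endothelium, the other main site of Klf2 and Klf4, summed to 39.6 to 44.2 RPKM against 41.1 to 41.3 RPKM, with 4 of 8 higher and 4 lower. Only 1 of these 8 had a mean above the olfactory 95th percentile, so the sums are mostly low signal. What part other cell types had in the Klf4 values was not tested.

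**Figure D1:**
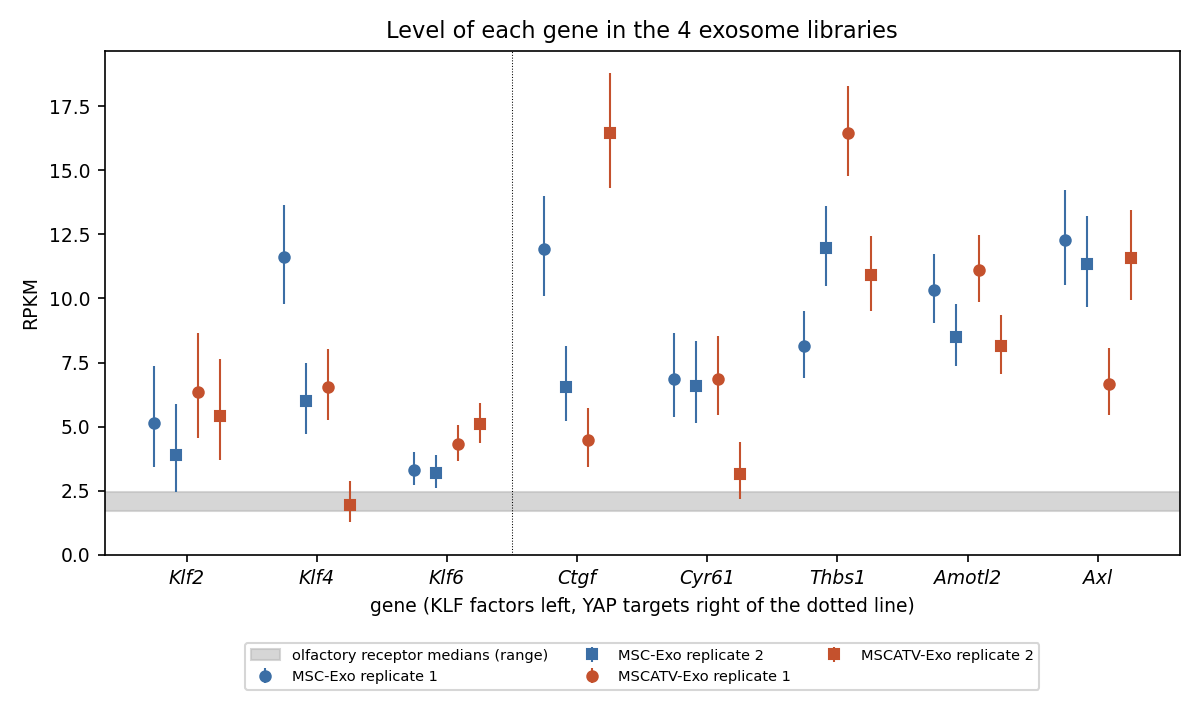
RPKM of each gene (vertical axis) in MSC-Exo (blue) and MSCATV-Exo (orange) libraries, with circles for replicate 1 and squares for replicate 2; bars are exact 95% Poisson intervals of the count, and the grey band spans the library medians of olfactory receptor genes, 1.71 to 2.47 RPKM. Klf2 and Klf6 are the genes whose orange points both lie above both blue points, while Ctgf spans 4.46 to 16.4 RPKM within MSCATV-Exo alone.

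Among the YAP targets, Ctgf and Cyr61 encode the secreted matricellular proteins CCN2 and CCN1, the genes most often read as a measure of YAP activity. Ctgf (chromosome 1, 21851657 to 21854773, minus strand, counted length 2336 bases) held 149 and 82 counts in the controls but 62 and 215 after atorvastatin. The MSCATV-Exo libraries held both its lowest value, 4.46 RPKM in replicate 1, and its highest, 16.4 RPKM in replicate 2. The MSC-Exo values of 11.9 and 6.56 RPKM fell between them. The log2 fold change of 0.25 ± 0.56 (SE) turned to -0.11 without MSC-Exo replicate 2 and to -0.87 without MSCATV-Exo replicate 2. It was 0.88 without MSCATV-Exo replicate 1. No direction can be given for Ctgf from these libraries.

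Cyr61 (chromosome 2, 251529354 to 251532312, minus strand, counted length 1984 bases) held 73 and 70 counts in the controls and 81 and 35 after atorvastatin. On the RPKM scale 3 libraries were close together, at 6.88, 6.59 and 6.87, and MSCATV-Exo replicate 2 alone was lower, at 3.15. The log2 fold change of -0.30 ± 0.61 (SE) became 0.20 without MSCATV-Exo replicate 2. In that library Cyr61, Klf4 and Amotl2 each had their lowest value and Ctgf and Klf6 their highest, so the CCN genes of the YAP response stood on opposite sides there.

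Thbs1, which encodes the matrix glycoprotein thrombospondin-1, an inhibitor of angiogenesis and an activator of TGF-beta (chromosome 3, 109862120 to 109873466, plus strand, counted length 3605 bases), had the highest mean level of the 8. The controls held 157 and 231 counts and the atorvastatin libraries 353 and 220, or 8.14 and 12.0 RPKM against 16.5 and 10.9 RPKM. The groups overlapped, with MSCATV-Exo replicate 1 highest and replicate 2 below MSC-Exo replicate 2. Its log2 fold change was 0.56 ± 0.35 (SE), with 0.16 to 0.88 when a library was left out. Of the olfactory receptor genes, 0.421% reached its mean level.

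Amotl2, an angiomotin family scaffold that binds YAP and is itself induced by it, and so works as feedback (chromosome 8, 111210261 to 111226217, plus strand, counted length 4327 bases), differed least between the groups. The controls held 239 and 197 counts and the atorvastatin libraries 286 and 197. The RPKM values were 10.3 and 8.50 against 11.1 and 8.13, so that MSCATV-Exo held the highest and the lowest library. Its log2 fold change of 0.15 ± 0.33 (SE) was -0.17 without MSCATV-Exo replicate 1.

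Axl, a receptor tyrosine kinase for the ligand Gas6 (chromosome 1, 82550892 to 82580761, minus strand, counted length 2667 bases), held 175 and 162 counts in the controls and 106 and 173 after atorvastatin. Here MSCATV-Exo replicate 1 was the low library, at 6.68 RPKM, while the other 3 lay at 11.3 to 12.3 RPKM. The log2 fold change of -0.28 ± 0.38 (SE) was 0.02 without MSCATV-Exo replicate 1.

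None of the 8 genes passed the test. By edgeR's quasi-likelihood test with Benjamini-Hochberg adjustment over all genes, 0 of the 8 and 0 of 33480 tested genes (0.0%) had an adjusted p under 0.05, and each of the 8 had an adjusted p of 1.00. Unadjusted, 0 of the 8 had p under 0.05, against 3.69% of all tested genes. The smallest edgeR p among them was 0.118 for Klf6. DESeq2 called 0 of the 8 and 0.329% of the 32181 genes to which it gave an adjusted p, and limma on log2(RPKM + 1) called 0 of the 8. Of the 8, 5 had a higher and 3 a lower mean in MSCATV-Exo. Their median log2 fold change of 0.20 stood beside -0.01 over all tested genes, of which 49.4% were higher. Groups that did not overlap, both with MSCATV-Exo higher, were seen for 2 of the 8 (Klf2 and Klf6), and 0 of the 8 were separated with MSCATV-Exo lower. Over all tested genes the shares were 16.1% for separation with MSCATV-Exo higher, 17.4% for lower and 33.5% in either direction. The members' share was 25%, above the 16.1% for that direction and below the 33.5% for either, and it rests on 2 genes. With 2 libraries against 2, an exact two-sided permutation test of a single gene cannot give a p below 0.333.

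The intervals show how large a difference these libraries leave possible. The 95% interval of the fold (MSCATV-Exo over MSC-Exo) ran from 0.362 to 5.47 for Klf2, from 0.198 to 1.43 for Klf4 and from 0.878 to 2.74 for Klf6. Among the YAP targets it was narrowest for Amotl2, at 0.672 to 1.82, and 0.462 to 1.47 for Axl. It ran from 0.857 to 2.53 for Thbs1, from 0.505 to 2.80 for Ctgf and from 0.317 to 2.08 for Cyr61. A 2-fold increase of Klf2, Klf6, Ctgf, Cyr61 or Thbs1 therefore lies inside the interval. A 2-fold decrease lies inside it for Klf2, Klf4, Cyr61 and Axl, and no difference lies inside it for all 8. The sign of the log2 fold change stayed the same with any library left out for 4 genes, Klf2, Klf4, Klf6 and Thbs1, and turned for Ctgf, Cyr61, Amotl2 and Axl.

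**Figure D2:**
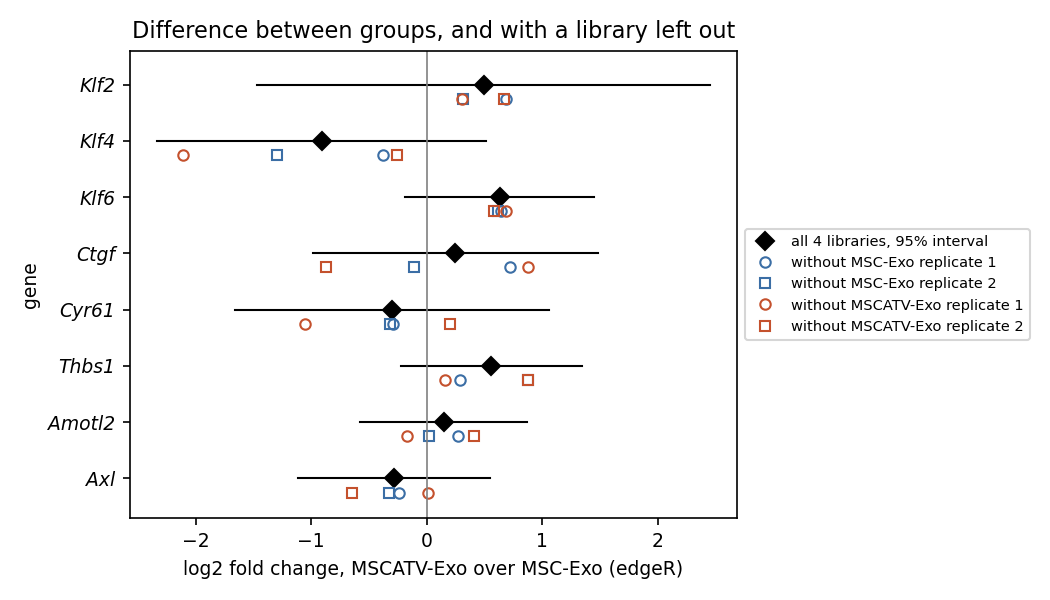
Log2 fold change of MSCATV-Exo over MSC-Exo (horizontal axis) for each gene from all 4 libraries (black diamonds, bars are 95% intervals) and with 1 library left out (open symbols, coloured by the group of the library that was left out). All 8 intervals cross 0, and the open symbols lie on both sides of 0 for Ctgf, Cyr61, Amotl2 and Axl.

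In the authors' deposited table, 3 of the 8 genes had a q-value under 0.05. That table gives Klf4 a log2 ratio of -1.05 and a q-value of 7.65e-05, Thbs1 0.44 and 0.00411, and Klf6 0.53 and 0.0123. For Axl the authors' deposited table has a log2 ratio of -0.37 and a q-value of 0.0646, and for Cyr61 -0.43 and 0.192. Klf2, Ctgf and Amotl2 have q-values of 0.482, 0.577 and 0.844 in the authors' deposited table. The share of 37.5% stands beside 34.3% of the 38021 genes in the authors' deposited table at that threshold, so it is near the background. Of these 3 genes only Klf6 had groups that did not overlap, and edgeR gave unadjusted p-values of 0.186, 0.143 and 0.118 for Klf4, Thbs1 and Klf6. The test behind the q-values is not given in the sources used here.

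The replicate spread differed strongly between the genes. Within MSCATV-Exo the higher library exceeded the lower by 3.63 times for Klf4, 3.38 times for Ctgf and 2.38 times for Cyr61 in normalised CPM. The median of that ratio was 1.46 over the 15937 protein-coding genes with a mean of 5 to 50 CPM. Ratios as large were found for 6.70% of those genes in the case of Klf4, 7.68% for Ctgf and 16.7% for Cyr61. At the other end, Klf6 had a ratio of 1.08 in MSCATV-Exo and 1.02 in MSC-Exo, smaller than in most of those genes. Exact counting intervals of the MSCATV-Exo replicates did not overlap for Klf4, Ctgf, Cyr61, Thbs1, Amotl2 and Axl, so for these genes the replicates differed by more than counting error. In MSC-Exo the same held for Klf4, Ctgf and Thbs1. An excess over counting error was not particular to these genes. The chi-square of replicate counts against counting error averaged 10.5 per gene in MSC-Exo (32605 genes) and 14.4 in MSCATV-Exo (32157 genes). The share of all genes with counting intervals apart was not computed. Summed over the 5 YAP targets the differences largely offset each other, with 49.5 and 45.0 RPKM in MSC-Exo and 45.6 and 50.2 RPKM in MSCATV-Exo. The 3 Krüppel-like factors summed to 20.1 and 13.1 RPKM against 17.2 and 12.5 RPKM.

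By mean level per length over the 4 libraries the order was Thbs1 (11.9 ± 3.46 RPKM; SD, n = 4), Axl (10.5 ± 2.55), Ctgf (9.84 ± 5.40), Amotl2 (9.52 ± 1.43), Klf4 (6.52 ± 3.95), Cyr61 (5.87 ± 1.82), Klf2 (5.20 ± 1.02) and Klf6 (3.99 ± 0.901). No neighbours in this order were apart beyond their spread, since the ranges over the libraries overlapped in every adjacent pair. Klf2 lay above Klf6 in all 4 libraries and Axl above Ctgf in 3 of 4, while Thbs1 lay above Axl in 2 of 4. Among protein-coding genes the levels stood between the 39.6th percentile (Klf6) and the 96.4th percentile (Thbs1).

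The transcripts of YAP and TAZ themselves stood higher per length than any of the 8 genes. Yap1 held 943 and 988 counts in the controls and 1389 and 1237 after atorvastatin, or 37.7 and 39.4 RPKM against 49.9 and 47.2 RPKM. Both MSCATV-Exo libraries lay above both MSC-Exo libraries (log2 fold change 0.44 ± 0.20, SE; 0.33 to 0.54 with a library left out). Wwtr1, the gene of TAZ, stood at 39.2 and 26.2 RPKM against 20.2 and 23.6 RPKM, separated in the opposite direction (-0.48 ± 0.32, SE; -0.73 to -0.18). No olfactory receptor gene reached the mean level of either. The 2 co-activator genes together came to 76.9 and 65.7 RPKM in MSC-Exo and 70.2 and 70.8 RPKM in MSCATV-Exo.

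The list of 19 Hippo core genes holds the kinase cascade that keeps YAP in the cytoplasm, and also Yap1, Wwtr1 and the TEAD genes. Counts over the list therefore give no direction of pathway activity. Most of the list lay below the olfactory 95th percentile, with 7 of 19 genes above it, Yap1 and Wwtr1 included. Of the 19, 10 were higher and 9 lower in MSCATV-Exo, 0 were called by edgeR or DESeq2, 0 had an unadjusted edgeR p under 0.05, and the median log2 fold change was 0.03. Sav1, the scaffold of the kinase MST, held 45 and 18 counts in the controls and 54 and 129 after atorvastatin (1.53 ± 0.70, SE; 0.80 to 2.31 with a library left out). Tead2, a DNA-binding partner of YAP, had 37 and 82 against 183 and 69 counts, with overlapping groups (1.08 ± 0.60, SE; 0.18 without MSCATV-Exo replicate 1). Tead3 stood at 8.58 RPKM on average with a log2 fold change of -0.08 ± 0.40 (SE).

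A wider list of YAP targets, of which 22 of 23 genes were found and tested, was even between the groups. It had 12 higher and 10 lower, 0 called by edgeR or DESeq2, 0 with an unadjusted edgeR p under 0.05, and a median log2 fold change of 0.05. Scaling by total counts left 9 of the 22 higher (median -0.05), leaving out control replicate 2 left 7 (median -0.16), and leaving out control replicate 1 gave 16 (median 0.28). That scaling moved the median of all genes by -0.10, from -0.01 to -0.11. Among the 17 genes of the list other than the 5 above, 9 were higher and 8 lower (median 0.02). Ccdc80, a secreted matrix protein and the most abundant gene of the list, had 481 and 329 counts against 623 and 531, or 21.9 and 15.0 RPKM against 25.6 and 23.1 RPKM. Its groups did not overlap (log2 fold change 0.51 ± 0.27, SE; 0.27 to 0.79 with a library left out). Dock5, a Rac activator, was at 0.33 ± 0.30 (SE) and Fjx1, a relative of the fly kinase Four-jointed, at 0.12 ± 0.46 (SE), which was -0.01 with total-count scaling. On the list 9 of 22 genes had a mean level above the olfactory 95th percentile. Groups were separated with MSCATV-Exo higher for 2 of the 22 and with MSCATV-Exo lower for 0. Over all tested genes those shares were 16.1% and 17.4%.

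Of the Krüppel-like factors Klf1 to Klf17, all 17 were tested, with 9 higher, 8 lower and a median of 0.00 (log2). Of these, 3 had a mean level above the olfactory 95th percentile, namely Klf1, Klf13 and Klf16, and 0 were called by edgeR or DESeq2. An unadjusted edgeR p under 0.05 was seen for 2 of the 17, beside 3.69% of all tested genes, namely Klf8 and Klf16, both lower in MSCATV-Exo. Klf8, a repressor linked to cell migration, had 79 and 101 counts against 29 and 35 (-1.50 ± 0.60, SE). Its mean of 1.98 RPKM was below the level of 66.7% of olfactory receptor genes. Klf16 had 149 and 143 counts against 58 and 91, or 10.7 and 10.3 RPKM against 3.76 and 6.26 RPKM (-0.98 ± 0.43, SE). Klf10, which is induced by TGF-beta, had 84 and 36 counts against 131 and 106 (0.98 ± 0.53, SE; 0.50 to 1.69 with a library left out). Klf1, the erythroid factor, had 122 and 63 counts against 101 and 46, and thus a higher level per length (9.19 RPKM) than Klf2 or Klf4. Klf13 was at -0.21 ± 1.03 (SE).

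**Figure D3:**
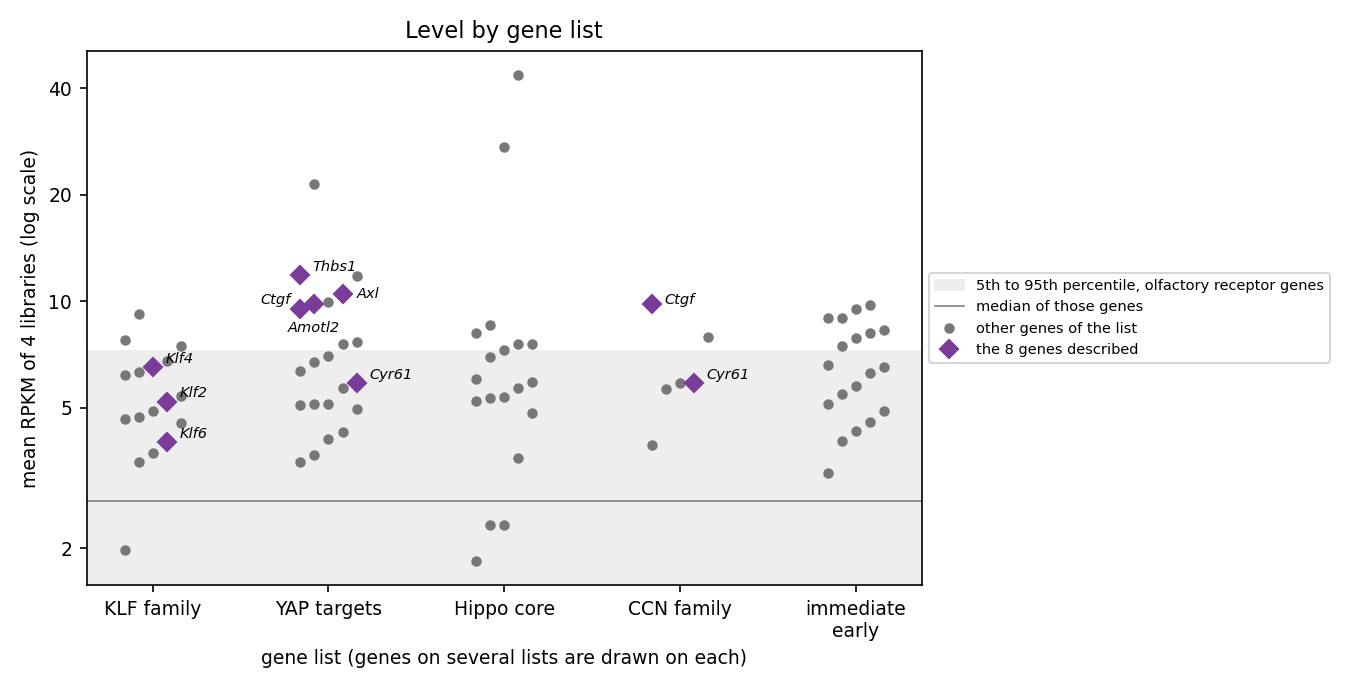
Mean RPKM over the 4 libraries (vertical log axis) of each gene of 5 lists, with the 8 genes as purple diamonds; the grey band spans the 5th to 95th percentile of olfactory receptor genes, and its upper edge is 7.24 RPKM. Yap1 (43.6 RPKM) and Wwtr1 (27.3 RPKM) top the Hippo core list, and the Krüppel-like factors lie mostly inside the band.

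Genes that act upstream and downstream of Klf2 were also without a call. Its upstream path runs through the kinases MEKK2, MEKK3, MEK5 and ERK5 and the MEF2 factors, which class IIa histone deacetylases hold in check. Of 8 such genes tested 3 were higher and 5 lower (median -0.29), with Mef2c at 0.66 ± 0.40 (SE), Mef2d at -0.29 ± 0.26, Hdac5 at -0.36 ± 0.39 and Hdac7 at 0.33 ± 0.39. Among 10 genes known to respond to Klf2, 7 were higher and 3 lower (median 0.19). The list holds genes that Klf2 represses as well as genes that it induces, so this count gives no direction of Klf2 activity. Thbd was at 0.34 ± 0.49 (SE), Slc7a1 at 0.27 ± 0.32, Sele at 0.25 ± 0.73, Ptgds at -0.32 ± 0.86 and Edn1 at -0.63 ± 0.83. Nos3, the endothelial nitric oxide synthase, had 124 and 189 counts against 211 and 226 (0.47 ± 0.34, SE). The adhesion molecule gene Vcam1 had 41 and 42 counts against 23 and 23 (-0.85 ± 0.86, SE), at a level that 67.2% of olfactory receptor genes reached. Cav1, the caveolar coat protein, stood at 15.4 and 11.3 RPKM against 13.8 and 22.0 RPKM (0.52 ± 0.32, SE), Nqo1 at 0.07 ± 0.56 (-0.04 with total-count scaling) and Cdkn1a at 0.12 ± 0.47. edgeR and DESeq2 called 0 genes of either list, and 0 had an unadjusted edgeR p under 0.05.

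Klf2, Klf4, Klf6 and Cyr61 are known as early response genes too. A list of 19 other immediate early genes, which holds none of the 8, had 11 higher and 8 lower (median 0.04). edgeR called 0 of them and DESeq2 called 1, beside 0.329% of all genes, namely Myc, with 15 and 21 counts against 123 and 116 (edgeR log2 fold change 2.72 ± 0.59, SE), which was also the 1 gene of the 19 with an unadjusted edgeR p under 0.05, beside 3.69% of all genes. Junb, an AP-1 subunit, was at 0.56 ± 0.44 (SE), Srf at 0.47 ± 0.34, Ier2 at 0.40 ± 0.57, Egr1 at -0.12 ± 0.59 and Egr2 at -0.60 ± 0.36. Total-count scaling left 9 of the 19 immediate early genes higher (median -0.05). Under the same scaling 8 of 19 Hippo core genes (median -0.07), 8 of 17 Krüppel-like factors (median -0.12), 6 of 10 Klf2-responsive genes (median 0.09) and 3 of 8 upstream genes (median -0.40) were higher.

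Relatives of the 5 YAP targets lay on both sides of 0. In the CCN family, Nov (CCN3), a growth-restraining member, held 20 and 27 counts in the controls and 70 and 68 after atorvastatin, or 2.58 and 3.47 RPKM against 8.11 and 8.37 RPKM. Its groups did not overlap (log2 fold change 1.54 ± 0.71, SE; 1.33 to 1.79 with a library left out). Wisp2 (CCN5), which lacks the C-terminal domain of the family, had 35 and 60 against 97 and 117 counts (1.16 ± 0.54, SE). Wisp3 was at 0.73 ± 0.64 (SE) with groups also separated, and Wisp1 at -0.37 ± 0.62. Thus 3 of the 6 CCN genes were separated with MSCATV-Exo higher, beside 16.1% of all genes, and Ctgf and Cyr61 were not among them. edgeR called 0 of the 6, DESeq2 0, and 0 had an unadjusted edgeR p under 0.05.

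**Figure D4:**
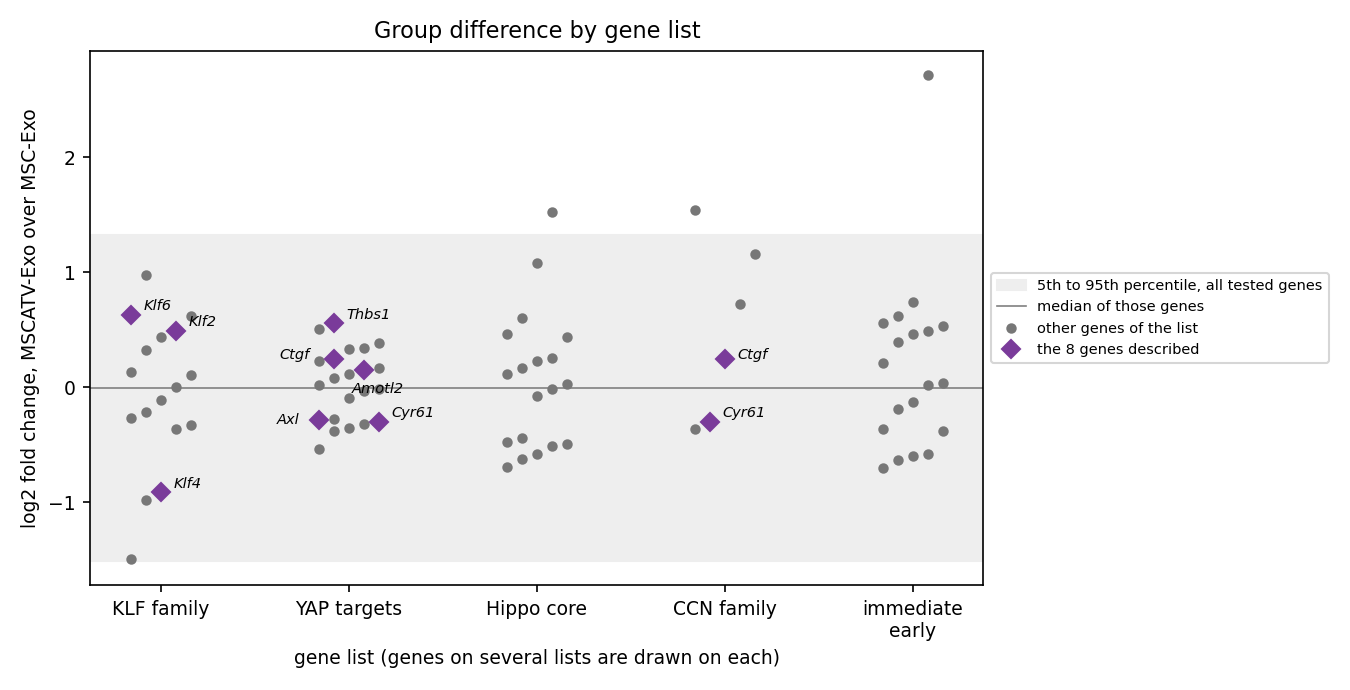
Log2 fold change of MSCATV-Exo over MSC-Exo (vertical axis, edgeR) of each tested gene of 5 lists, with the 8 genes as purple diamonds and the grey band spanning the 5th to 95th percentile of all tested genes. All 8 genes lie inside the band; the points above it are Sav1 (1.53), Nov (1.54) and Myc (2.72).

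In the thrombospondin list, Thbs2 stood at 10.4 and 7.30 RPKM against 7.40 and 5.30 RPKM (-0.36 ± 0.34, SE), Thbs3 at 0.19 ± 0.52, Thbs4 at -0.61 ± 0.48 and Comp, the cartilage member, at -0.23 ± 0.48. The receptor gene Cd47 was at -0.13 ± 0.50 (SE), and Cd36 had 19 and 24 counts against 1 and 10 (-1.96 ± 1.64, SE). Thbs1 was 1 of 2 genes of these 7 with a higher mean in MSCATV-Exo, beside Thbs3. The angiomotin genes were close to even, with Amot at 0.26 ± 0.32 and Amotl1 at 0.11 ± 0.29 (SE). Of Axl's relatives, the receptor Tyro3 stood at -0.24 ± 0.38 (SE) and Mertk at 0.33 ± 0.45. The ligand Gas6 was at -0.13 ± 0.38 and Pros1 at -1.01 ± 0.84. With total-count scaling Amotl1 stood at -0.00 and the other genes of these lists kept their sign. edgeR and DESeq2 called 0 genes of these lists, and 0 had an unadjusted edgeR p under 0.05.

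The genes with the closest profile were sought by Euclidean distance of log2(normalised CPM + 1) over the 4 libraries, which compares both level and pattern. For Klf6, the Krüppel-like factor with the highest CPM of the 3, these were Tnip1 (distance 0.119; 106 and 102 counts against 163 and 184), Arpc4 (0.124) and Cct2 (0.172). For Thbs1, the YAP target with the highest CPM of the 5, they were Zbtb16 (distance 0.196; 158 and 201 counts against 352 and 221), Frem3 (0.210) and Spsb1 (0.212). Among the 33479 other genes, 265 lay within a distance of 0.5 of Klf6 and 75 within that of Thbs1, so the genes named were not the only ones with such a profile.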

How the data were processed

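RNA from 2 MSC-Exo and 2 MSCATV-Exo libraries was analysed as deposited. The submitters' processing notes name TopHat2 and the rat genome builds rn6 and Rnor_6.0. The read counter, annotation release and strand setting are not given in the sources used here. The authors deposited whole-number counts per gene and RPKM, which matched reads scaled by the listed length and by the table's own total. Their comparison table, per the file headers, holds mean RPKM per group, the log2 ratio of those means, and for each gene its p-value and its q-value.

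After filterByExpr, 33480 genes entered edgeR 4.0.16 (R 4.3.3) with TMM factors and a two-sided quasi-likelihood test, adjusted by Benjamini-Hochberg over all of them. SE was derived from the fit, on its pooled spread, as the absolute log2 fold change divided by the square root of the F statistic. The 95% intervals are symmetric t intervals on the log2 scale built from that SE. The fit was tested on simulated data. Alternatives were DESeq2 1.42.0, RLE or total-count scaling, no filter or at least 1 CPM, the replicate block, limma 3.58.1 on log2(RPKM + 1) or log2(RPKM + 0.1), and leaving out each library. Poisson intervals cover counting error only, since the reads carry no molecular identifiers.

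The 8 genes and all lists were chosen with earlier results of these data known. Besides the 8, the text names the 3 genes per list with the smallest p and the 3 with the highest RPKM. It also names all CCN, thrombospondin, angiomotin, TAM receptor and Klf2-responsive genes. Of marker lists it names only those that bear on a result. One further list is not reported here. The likeness distance adds 1 CPM before the log. Non-coding transcript tables were not used here, and rat sequences were not analysed here.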

Additional observations from a re-analysis of the deposited data

How the results depend on the processing

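None of the 8 genes was called in any of the 13 alternatives, and of their 104 values 96 kept their direction. The exceptions were Ctgf with limma, at -0.0176 on log2(RPKM + 1) with or without the filter and -0.0421 on log2(RPKM + 0.1), and the fits with a library left out. There Ctgf ran from -0.87 to 0.88, Cyr61 from -1.05 to 0.20, Amotl2 from -0.17 to 0.41 and Axl from -0.65 to 0.0155; the cause was not tested. The edgeR count over all genes, 0, became 8 with no filter on low counts, 106 with DESeq2, 4 with the replicate block and 1 to 168 with a library left out. With a library left out, the number of YAP target list genes higher in MSCATV-Exo ran from 7 to 16 and of Krüppel-like factors from 7 to 11. Replicate numbers are shared between the groups, but same-numbered libraries did not deviate together (correlation across genes of -0.000516) and the labels name no pairing. With the replicate block Klf4 was at -1.09, Klf6 at 0.63 and Thbs1 at 0.54, and no call among the 8 changed. The counts of 22 to 353 per library limit the precision most for Klf2.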

Other observations

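Annotated features overlap some of these genes, and the library kit named in the labels does not mark strand. Ctgf shares its 5′ end with the lncRNA LOC108349248 on the opposite strand (chromosome 1, 21854553 to 21870577), which held 48 and 29 counts in the controls and 17 and 21 after atorvastatin. That gene was thus low in both MSCATV-Exo libraries, whereas Ctgf was lowest in replicate 1 and highest in replicate 2. Axl lies inside the listed span of Vom2r7 (54616669 to 86770487, on the same strand as Axl), a vomeronasal receptor gene with 2 to 23 counts. That span is far wider than the counted length of Vom2r7, 1648 bases, and whether it is an annotation error was not tested. Klf6 has a listed span of 57114 bases for a counted length of 6018 bases, a wider span than the 1951 bases of Klf2 or the 4359 bases of Klf4.

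Some genes were listed at 0 counts in all 4 libraries where their partners had many. One is Mapk7, which encodes the kinase ERK5 upstream of Klf2. Col1a2 is likewise listed at 0 in all 4, while Col1a1, the other chain gene of type I collagen, held 895 and 1307 counts in the controls and 964 and 1285 after atorvastatin. A 0 for Col1a2 would be unusual in MSC material, so neither 0 is read here as absence of the transcript, and whether the counting or annotation left these genes out was not tested.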
